A study of Mus musculus with 8 samples.

Results

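The genes described here move copper through mouse cells or bind it, and comprise the plasma membrane importer Slc31a1 and its relative Slc31a2, the chaperones Atox1 and Ccs, the pumps Atp7a and Atp7b, the copper enzyme Sod1 and the metallothioneins Mt1, Mt2 and Mt4. They were chosen by name as known copper transport and metallothionein genes, and all 10 were among the 18770 genes listed. RNA-seq was done on dorsal skin of C57BL/6 wildtype mice at D4 after depilation. The labels give an age of 7 to 8 weeks. The study's methods give C57BL/6J, males only and a slightly younger age at depilation. There were 4 libraries from mice given alpinetin (AP) and 4 from mice given vehicle control (VC). The plant flavonoid AP (3 mg/ml, a volume of 20 µl) was dissolved in 65% ethanol and put on the skin daily from 24 h after depilation, and the vehicle was 65% ethanol alone. By the study's methods, epidermis between the follicles had been taken off, which left the dermis and its follicles. Genes of suprabasal keratinocytes were nevertheless read in every library and were higher in the AP group (below). How complete the removal was is not given. Each library thus mixes fibroblasts, keratinocytes of the follicles and perhaps of remaining epidermis, melanocytes, muscle, fat and blood cells. Depilation starts a synchronous hair cycle in healthy skin, which is the setting these samples model. The columns are numbered from VC.1 and AP.1, and none could be tied to a single labelled sample. The caption of the study's expression heat map gives as many mice as libraries in each group, while the labels tie no library to a mouse, and p-values measure the spread between these libraries.

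Copper is both a cofactor and a toxic ion, and cells keep almost none of it free. Slc31a1 brings it across the plasma membrane, Atox1 carries it to the pumps in the secretory pathway, Ccs loads it into Sod1, and metallothioneins bind the surplus together with zinc. In skin, the Atp7a pump supplies tyrosinase, the enzyme of melanin synthesis, and the lysyl oxidases that cross-link collagen, and loss of Atp7a function leaves pale coats and brittle hair.

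Values are reads per gene divided by 1 size factor per library, called normalized counts. Depth ran from 6454563 to 7264151 counted reads per VC library, against 8507783 to 11190113 per AP library. The 13 mitochondrially encoded genes took 54.3%, 44.9%, 42.1% and 52.3% of the reads for VC.1 through VC.4, against 11.1%, 7.85%, 5.32% and 10.3% for AP.1 through AP.4. Both measures separated the groups completely (two-sided exact permutation test, p = 0.0286 for each, the smallest that 4 libraries against 4 allow), so depth and mitochondrial share cannot be told apart from treatment in any comparison here. Without the mitochondrially encoded genes, depth was 3080758 to 3762217 reads per VC library against 7561598 to 10594787 per AP library, a wider gap. A floor of 3 reads corresponded to 4.10 to 5.63 normalized counts in the VC libraries and to 1.49 to 2.18 in the AP libraries. Fold changes are AP over VC on the log2(value + 1) scale from limma, which understates changes of low genes, and p-values are adjusted over the 15964 genes that reached 3 normalized counts in 4 or more libraries. Of the 10 copper genes 9 passed this filter, and Atp7b did not.

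With an adjusted p under 0.05 in limma, Atp7a and Slc31a2 were higher in the AP group and Ccs was lower, though its sign turned with total counts, a scaling that moved the median of all genes from 0.06 to 0.90 (log2). That is 2 of 9 higher and 1 of 9 lower, beside 6.33% and 4.0% of all genes tested. By the cut-offs of the study's methods (fold change above 1.5 with unadjusted p under 0.01), applied here to limma, 2 were higher and 2, Ccs and Mt1, were lower, beside 8.26% and 5.32% of all genes. The same cut-offs on DESeq2, the tool those methods name, gave 4 lower (Ccs, Sod1, Mt1 and Mt2), beside 1173 of all 15964 genes. With total counts the signs of these 4 turned, as that shift brings about, and relative to the median of all genes they stood at -0.66, -0.70, -0.89 and -0.77. The libraries of the AP and VC groups did not overlap in 2 genes that were higher (10.3% of all genes) and in 3 that were lower (8.91%), namely Ccs, Sod1 and Mt1 (with the same turn of sign under total counts). Without AP.3, the numbers of genes higher and lower at an adjusted p under 0.05 in limma fell from 1011 and 639 to 209 and 94, and by the methods' cut-offs in limma from 1319 and 850 to 847 and 505. At an adjusted p under 0.05 they were 398 and 155 without AP.2, 254 and 139 without AP.4, and 585 and 261 without VC.1. Of the copper genes, 1 was higher without AP.3 or AP.4, and 0 were lower without AP.2, AP.3, AP.4, VC.1 or VC.3, while 2 were lower without AP.1 or VC.4. The median log2 fold change was -0.62 over the 9 genes and 0.06 over all genes tested. Atp7a had been named by the study from these same libraries, so its direction is not independent evidence.

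**Figure D1:**
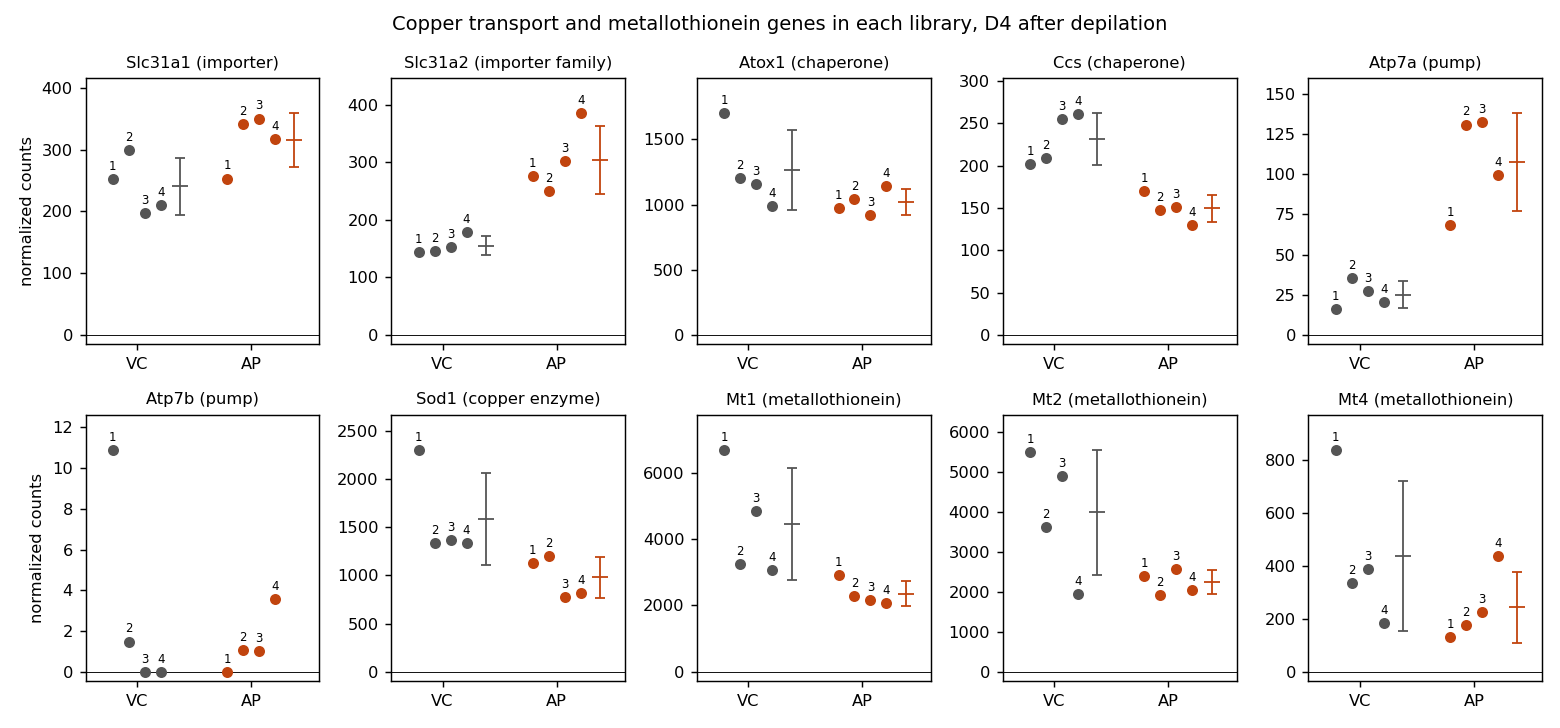
Normalized counts (vertical axes, linear, a different range in each panel) of the 10 copper genes in the 4 VC and 4 AP libraries, each point 1 library with its number, beside the mean and SD of each group (not drawn for Atp7b, which had 3 libraries at 0). The 4 AP libraries lie between 68.2 and 133 normalized counts for Atp7a, all above the VC libraries, while VC.1 has the highest value of Atox1, Sod1, Mt1, Mt2, Mt4 and Atp7b.

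Among the importers, Slc31a1 is the high-affinity copper transporter of the cell surface (ENSMUSG00000066150, chromosome 4 of mm10, 62360727 to 62391769). It had 253, 300.0, 198 and 210.0 normalized counts for VC.1 through VC.4 against 253, 341, 350.3 and 318 for AP.1 through AP.4. AP.1 lay among the VC libraries, so the groups overlapped. The log2 fold change was 0.40 (SE 0.19, 95% interval -0.01 to 0.81, adjusted p = 0.176 from limma), which did not pass the threshold. Under total-count scaling it was 1.27 with an adjusted p of 0.00149, or 0.37 above the median of all genes.

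Slc31a2 (ENSMUSG00000066152, chromosome 4, 62262562 to 62298411), a related protein found mainly in endosomes and lysosomes, lies on the same strand and 62315 bases before Slc31a1. It had 144, 145, 153 and 178 normalized counts for VC.1 through VC.4 against 276, 250.2, 302 and 386 for AP.1 through AP.4. Every AP library was above every VC library. The means were 155 ± 16.0 with VC and 303 ± 58.7 with AP (SD, n = 4 each), which is a log2 fold change of 0.95 (SE 0.19, 95% interval 0.55 to 1.36, limma adjusted p = 0.0151). The call was lost without AP.3 (0.95, adjusted p = 0.0554) and without AP.4 (0.83, adjusted p = 0.0528). The counts of Slc31a1 stood at 1.18 to 2.07 times those of Slc31a2 in the VC libraries and at 0.824 to 1.36 times in the AP libraries, a ratio that no scaling of whole libraries can change. In these bulk samples, more or fewer cells of a type and more or less RNA per cell cannot be told apart, here and below.

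Of the chaperones, Atox1 hands copper to the pumps (ENSMUSG00000018585, chromosome 11, 55446641 to 55461239, minus strand). Its normalized counts were 1704, 1206, 1158 and 992 for VC.1 through VC.4 against 975, 1045, 917 and 1142 for AP.1 through AP.4. VC.1 was the highest and the other libraries overlapped. The log2 fold change was -0.29 (SE 0.18, limma adjusted p = 0.301), and it turned to 0.13 (adjusted p = 0.601) once the trend on transcript length was removed, so no direction can be given for Atox1. Without VC.1 it was -0.13 (adjusted p = 0.601). With total counts it was 0.58 (adjusted p = 0.0190), or -0.32 relative to the median of all genes.

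Ccs, the chaperone of Sod1 (ENSMUSG00000034108, chromosome 19, 4825366 to 4839332, minus strand), had 202, 208, 255 and 261 normalized counts for VC.1 through VC.4 against 169.7, 147, 151 and 130.2 for AP.1 through AP.4. All 4 AP libraries were below the lowest VC library. With means of 232 ± 30.7 and 149.5 ± 16.2 (SD, n = 4 each), the log2 fold change was -0.62 (SE 0.18, 95% interval -1.02 to -0.23, limma adjusted p = 0.0496), and it was 0.24 with total counts (adjusted p = 0.399), that is -0.66 relative to the median of all genes. The call held by a small margin. It was lost without VC.1 (adjusted p = 0.0576), VC.2 (0.0591), VC.3 (0.0847), VC.4 (0.0873), AP.2 (0.110), AP.3 (0.128) or AP.4 (0.131), all from limma. Once the trend on transcript length was removed in each library, the value was -0.30 (adjusted p = 0.352).

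The pump Atp7a moves copper into the secretory pathway and out of the cell (ENSMUSG00000033792, chromosome X, 106027276 to 106124926, plus strand). It had 16.4, 35.5, 27.3 and 20.6 normalized counts for VC.1 through VC.4, from 9, 24, 20 and 11 reads, against 68.2, 131, 133 and 99.4 for AP.1 through AP.4, from 94, 243, 266 and 139 reads. Each AP library was above the highest VC library. The lowest AP library, AP.1, also had the fewest reads and the highest mitochondrial share of that group. Atp7a rose from 24.9 ± 8.34 to 108 ± 30.5 (SD, n = 4 each), which is a log2 fold change of 2.08 (SE 0.35, 95% interval 1.32 to 2.83, limma adjusted p = 0.00911). Among the 9 tested genes it had the largest change, and its adjusted p was under 0.05 in each of the 25 alternative settings (log2 fold change 1.87 to 2.92, adjusted p up to 0.0428). The ratio of Slc31a1 to Atp7a counts was 15.4, 8.46, 7.25 and 10.2 for VC.1 through VC.4 against 3.71, 2.60, 2.64 and 3.19 for AP.1 through AP.4. Relative to the cell-surface importer, the pump was thus more abundant in each AP library than in any VC library.

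Atp7b, the copper pump of liver (ENSMUSG00000006567, chromosome 8, 21992785 to 22060305, minus strand), had 6, 1, 0 and 0 reads for VC.1 through VC.4 against 0, 2, 2 and 5 for AP.1 through AP.4. In all but VC.1 and AP.4 it was at or under the floor of 3 reads, so no fold change is given and a difference was not detectable at this depth.

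Sod1, the cytosolic copper and zinc superoxide dismutase (ENSMUSG00000022982, chromosome 16, 90220754 to 90226329), had 2310.2, 1336, 1364 and 1339 normalized counts for VC.1 through VC.4 against 1134, 1199, 781 and 820.4 for AP.1 through AP.4. The groups did not overlap, and VC.1 stood far above the other VC libraries. The log2 fold change of -0.67 (SE 0.22, 95% interval -1.15 to -0.19) missed the threshold (limma adjusted p = 0.0683), and it was 0.20 with total counts (adjusted p = 0.421), or -0.70 relative to the median. Sod1 passed it with DESeq2 (-0.69, adjusted p = 0.0373) and with voom and sample weights (-0.67, adjusted p = 0.0468). Removing the trend on the principal transcript's length gave -0.27 (adjusted p = 0.356), and on the longest transcript's length -0.75 (adjusted p = 0.0701). Of the 50-base words in the principal Sod1 transcript, 23.1% also occur in the gene Gm8566, so part of its reads may have been counted elsewhere or not at all. No such shared word was found for the other 9 genes. Sod2 and Sod3 did not pass the threshold either, so 0 of the 3 superoxide dismutases was called by limma (1 at an unadjusted p under 0.05), and Sod1 alone by DESeq2. In counts, Sod1 stood at 5.14 to 11.4 times Ccs in the VC libraries and at 5.17 to 8.14 times in the AP libraries, so that enzyme and chaperone kept overlapping ratios.

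The metallothioneins lie in 1 cluster on the plus strand of chromosome 8, with Mt4 (ENSMUSG00000031757, 94137197 to 94139031) 33632 bases before Mt2 (ENSMUSG00000031762, 94172664 to 94173568) and Mt2 5513 bases before Mt1 (ENSMUSG00000031765, 94179082 to 94180327). Mt1 and Mt2 are the widely expressed forms that metals, glucocorticoids and oxidants induce. Mt1 had 6709, 3244, 4838 and 3056 normalized counts for VC.1 through VC.4 against 2918, 2285, 2162 and 2071 for AP.1 through AP.4. The lowest VC library was only slightly above the highest AP library, and the VC libraries spread more widely. From 4462 ± 1698 with VC and 2359 ± 383 with AP (SD, n = 4 each), the log2 fold change was -0.86 (SE 0.25, 95% interval -1.40 to -0.31) with a limma adjusted p of 0.0505, just over the threshold, and 0.01 with total counts (adjusted p = 0.965), or -0.89 relative to the median. With 12 of the 25 alternatives Mt1 passed, DESeq2 (adjusted p = 0.00851) and edgeR (0.0438) among them, and it passed without VC.2 (0.0446), VC.4 (0.0409) or AP.1 (0.0415). Removing the trend on transcript length gave -0.44 (adjusted p = 0.205).

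Mt2 had 5501, 3628, 4894 and 1935 normalized counts for VC.1 through VC.4 against 2407, 1929, 2574 and 2051 for AP.1 through AP.4. VC.4 lay among the AP libraries and the other VC libraries lay above them. The log2 fold change was -0.74 (SE 0.29, 95% interval -1.37 to -0.11, limma adjusted p = 0.114), or 0.13 with total counts (adjusted p = 0.725), which is -0.77 relative to the median, and without VC.4 it was -1.05 with an adjusted p of 0.0217. Removing the trend on length gave -0.32 (adjusted p = 0.509). Mt2 shares 432 exon bases with Gm45774, an antisense gene on the minus strand (ENSMUSG00000110588, 94170748 to 94173412), whose counts stood at 0.949 to 1.104 times those of Mt2 in the 8 libraries. Whether the counting used strand is not given in the sources used here, so reads of the pair cannot be told apart and the level of Mt2 is uncertain. Mt1 had 0.894 to 1.58 times as many counts as Mt2 in the VC libraries and 0.840 to 1.21 times in the AP libraries.

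Mt4 is the metallothionein of stratified epithelia such as differentiating epidermis. It had 839, 335, 389 and 184 normalized counts for VC.1 through VC.4 against 132, 177, 225 and 436 for AP.1 through AP.4. The groups overlapped widely, with VC.1 highest and AP.4 next. Its log2 fold change of -0.78 (SE 0.44, 95% interval -1.74 to 0.19, limma adjusted p = 0.255), or 0.09 with total counts (-0.81 relative to the median), did not exceed the spread between libraries. It was -0.40 without VC.1 (adjusted p = 0.544) and -0.35 with the length trend removed (adjusted p = 0.634).

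Per kilobase of the principal transcript, the metallothioneins, Sod1 and Atox1 were far more abundant than the transporters. In the VC group, Mt1 was at 8127 ± 3093 normalized counts per kilobase and Mt2 at 7807 ± 3085, levels that did not differ beyond their spread. Sod1 (2476 ± 752) and Atox1 (2338 ± 567) followed and were likewise indistinguishable, then Mt4 (1097 ± 708) and Ccs (217 ± 28.8). The transporters were lowest, with Slc31a2 at 85.1 ± 8.80, Slc31a1 at 64.6 ± 12.5 and Atp7a at 5.09 ± 1.70 (SD, n = 4). In the AP group Mt2 (4384 ± 589) and Mt1 (4297 ± 697) again led without differing beyond their spread, and Atp7a (22 ± 6.23) was again the lowest of the 9. Slc31a2 (167 ± 32.3) there overlapped with Ccs (140.1 ± 15.2), and Slc31a1 was at 84.9 ± 11.8.

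The length of the principal transcript separated the genes in the same way as the sign of their change. The 6 genes with negative log2 fold changes had principal transcripts of 398 to 1067 nucleotides, whereas Slc31a2, Slc31a1 and Atp7a measured 1820, 3718 and 4900. By the longest transcript this separation did not hold, since Sod1 (3970 nucleotides) exceeded Slc31a2 (1820). Over all genes tested, the median log2 fold change was -0.14 up to 700 nucleotides (706 genes), -0.35 from 700 to 1200 (1385 genes), -0.19 from 1200 to 2000 (2886 genes), 0.03 from 2000 to 4000 (6337 genes) and 0.34 above 4000 (4650 genes). Once this trend was removed in each library, Atp7a (1.87, limma adjusted p = 0.0140) and Slc31a2 (1.11, adjusted p = 0.0111) passed the threshold, and neither Ccs nor a metallothionein did. What part length, depth or RNA quality has in the lower values was not tested further.

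**Figure D2:**
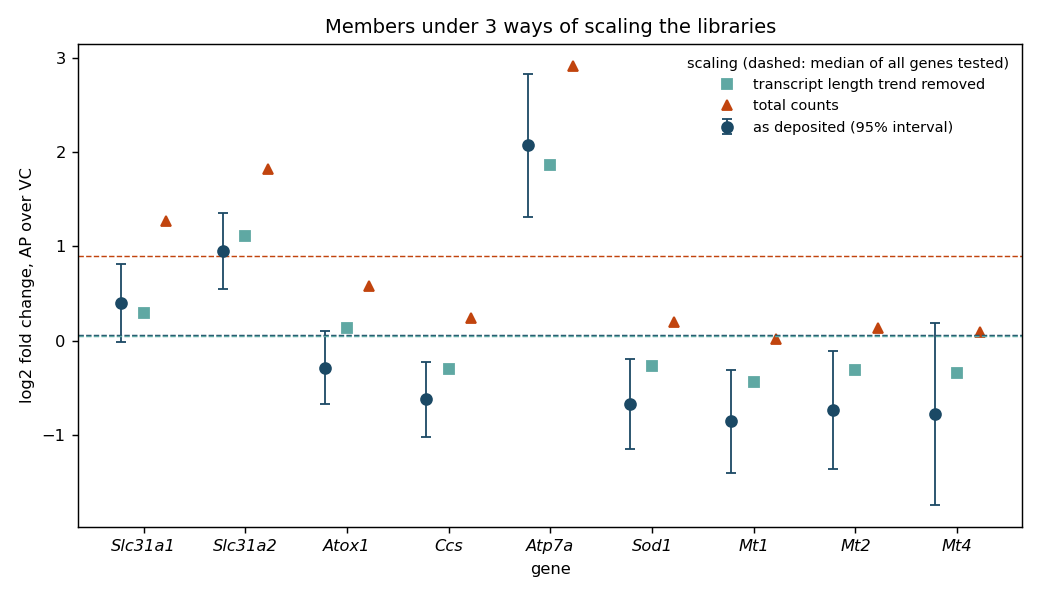
Log2 fold change (vertical axis, AP over VC) of the 9 tested copper genes as deposited (with the 95% interval), with the trend on transcript length removed, and with total counts, with dashed lines at the median of all genes under each. Atp7a is at 2.08, 1.87 and 2.92 and Slc31a2 at 0.95, 1.11 and 1.82, while Ccs is at -0.62, -0.30 and 0.24 and Mt1 at -0.86, -0.44 and 0.01.

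Metallothionein genes are induced through metal response elements, bound by the zinc sensor Mtf1. In the metal response list, Mtf1 had 206 ± 67.1 normalized counts with VC and 208 ± 19.8 with AP (SD, n = 4 each). Its target Slc30a1, a zinc exporter, had 315, 232, 421 and 191 for VC.1 through VC.4 against 328, 675, 633 and 469.9 for AP.1 through AP.4, and Mt3 had 33.6 ± 16.9 and 13.4 ± 6.38. For Slc30a1 the log2 fold change was 0.87 (limma adjusted p = 0.0675), and it passed the threshold without AP.1 (1.08, adjusted p = 0.0292) and without VC.3 (1.07, adjusted p = 0.0406). None of the 3 genes was called by limma, edgeR or voom (2 at an unadjusted p under 0.05), DESeq2 called Slc30a1 (0.86, adjusted p = 0.0360), and the median was 0.06. With total counts, which moved the median of all genes to 0.90, Slc30a1 was at 1.74 (limma adjusted p = 0.00203). Mtf1 was then at 0.93 (limma adjusted p = 0.0171).

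The core of that element was searched for as TGCACNC and TGCGCNC on both strands in the 250 bases before the start of each gene in RefSeq (GRCm38.p6), which held windows for 9 of the 10 genes, all but Ccs. At least 1 core was found in 21.4% of all 32851 windows, at least 2 in 5.17% and at least 3 in 1.26%. Mt2 had 3 cores and Atp7a 2. The windows of Mt1, Mt4, Slc31a2 and Atp7b had 1 each, and those of Slc31a1, Atox1 and Sod1 had 0. Of the metal response genes, Slc30a1 had 1 and Mt3 had 0. The windows of Mt2 (chr8:94172368-94172617) and Mt1 (chr8:94178839-94179088), both on the plus strand, are shown because Mt1 and Mt2 are the metal-responsive pair of the cluster, with the cores of either strand in capitals. RefSeq places the start of Mt2 before that of GENCODE and the start of Mt1 slightly after it, so cores near other starts are not counted. Bases after a RefSeq start were not searched, so a count here, that of Mt1 included, is not the number of cores of a gene. The Slc31a2 window (chr4:62286179-62286428) lies well inside the gene as GENCODE places it (62262562 to 62298411), so its core count does not describe the GENCODE start.
Mt2: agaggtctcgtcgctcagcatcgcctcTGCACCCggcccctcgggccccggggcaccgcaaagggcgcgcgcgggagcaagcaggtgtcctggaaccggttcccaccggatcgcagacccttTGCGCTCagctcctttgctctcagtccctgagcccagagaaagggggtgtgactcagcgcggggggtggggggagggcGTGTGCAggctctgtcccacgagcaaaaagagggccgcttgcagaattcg
Mt1: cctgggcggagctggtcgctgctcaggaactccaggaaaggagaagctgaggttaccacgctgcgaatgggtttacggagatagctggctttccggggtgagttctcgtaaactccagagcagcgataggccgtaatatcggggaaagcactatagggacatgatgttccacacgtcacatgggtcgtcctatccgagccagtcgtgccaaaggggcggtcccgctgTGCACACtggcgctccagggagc
A match is a description of letters, and binding was not measured.

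Zinc shares metallothioneins with copper, and of its transporters 19 of the 24 genes on the list were tested. By limma 5 were higher and 0 lower, beside 6.33% and 4.0% of all genes, with a median log2 fold change of 0.63. They were the exporter Slc30a4 (1.06, adjusted p = 0.0205) and the importers Slc39a8 (1.27, adjusted p = 0.0491), Slc39a6 (0.99, adjusted p = 0.0352), Slc39a14 (0.93, adjusted p = 0.0483) and Slc39a1 (0.66, adjusted p = 0.0211). All AP libraries were above all VC libraries for 4 of the 19 (10.3% of all genes), with Slc30a4, Slc39a14 and Slc39a1 among them. The count was 0 without AP.2, without AP.3, without AP.4 or without limma's intensity trend, 3 without VC.1, 2 without VC.4, 1 after the length trend was removed, 8 with DESeq2 and 17 with total counts. The most abundant, the Golgi and endoplasmic reticulum transporter Slc39a7, had 949.8 ± 122 normalized counts with VC and 759 ± 122 with AP.

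Of the copper enzymes, 14 of 16 were tested, with a median of 0.22. Tyr, which encodes the tyrosinase that Atp7a supplies, had 266, 182, 218 and 78.8 normalized counts for VC.1 through VC.4 against 56.6, 67.9, 96.7 and 47.9 for AP.1 through AP.4. VC.4 lay among the AP libraries. Tyr fell by 1.37 on the log2 scale (SE 0.37, limma adjusted p = 0.0400). With total counts it was at -0.51 (adjusted p = 0.304), that is -1.41 relative to the median of all genes, and with totals lacking mitochondrially encoded genes at -1.33 (adjusted p = 0.0525). Pam, which amidates secreted peptides, was higher (1.04, SE 0.29, adjusted p = 0.0417), and the other 12, the lysyl oxidases among them, did not pass the threshold in limma, while DESeq2 also called Moxd1 higher (0.93, adjusted p = 0.0342). The most abundant, Loxl2, had 747 ± 350 and 698 ± 229 normalized counts. The call of Pam was also lost once the length trend was removed (0.90, adjusted p = 0.0843). Without VC.2, 2 other genes of the list passed. Both calls were lost without VC.1, VC.2 or any single AP library, Tyr also without VC.3, with adjusted p-values up to 0.106 for Tyr and 0.108 for Pam. Both were also lost in limma without the intensity trend (adjusted p = 0.0837 for Tyr and 0.0982 for Pam).

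Among 13 further genes of copper handling, App, a copper-binding precursor protein and the most abundant, rose by 0.91 (SE 0.15, limma adjusted p = 0.00970), from 1539 ± 135 to 2907 ± 403 normalized counts, with all AP libraries above all VC libraries. Its call was lost only when the trend on the longest transcript was removed (0.56, adjusted p = 0.0533). Commd1, which takes part in the trafficking of the copper pumps, was lower (-0.84, SE 0.23, adjusted p = 0.0404), from 119 ± 16.4 to 65.9 ± 8.90 with no overlap, and was at 0.02 with total counts (-0.88 relative to the median). Its adjusted p was above 0.05 without VC.1, VC.2, VC.3, AP.2, AP.3 or AP.4 (up to 0.117). This held too with reads drawn down to equal totals outside the mitochondrially encoded genes (0.0539) and with totals lacking those genes (0.0527). DESeq2 also called Steap3 higher (0.74, adjusted p = 0.0460) and Ccdc22 lower (-0.60, adjusted p = 0.0281). The median of this list was 0.13.

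None of the 9 genes that deliver copper to cytochrome c oxidase was called by limma (2 at an unadjusted p under 0.05, median -0.26), while DESeq2, edgeR and voom each called Cmc2 lower. The most abundant, the phosphate and copper carrier Slc25a3, had 2675 ± 305 normalized counts with VC and 2221 ± 122 with AP. Of 12 glucocorticoid targets, Dusp1, a phosphatase of MAP kinases that many stimuli induce, rose by 2.12 (SE 0.29, limma adjusted p = 0.00435), and 0 were lower, with a median of 0.34. Without VC.4, 2 genes of this list were higher, and DESeq2 also called Nr3c1 higher (0.35, adjusted p = 0.0390). The most abundant, Tsc22d3, had 2329 ± 298 and 1915 ± 830 normalized counts. Of 8 oxidant response genes, 0 were called by limma, DESeq2, edgeR or voom (1 at an unadjusted p under 0.05, median 0.08), with Txnrd1, the most abundant, at 557 ± 58.7 and 572 ± 86.8. With total counts the log2 fold change of Txnrd1 was 0.90 (limma adjusted p = 0.00431), and the median of all genes was also 0.90.

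Markers of cell types moved with the groups as well, and their part in the copper genes' values was not tested. Of 15 suprabasal keratinocyte genes 13 were higher in the AP group by limma and 0 lower, with a median of 3.0. Their summed normalized counts were 6763, 14253, 9781 and 6641 for VC.1 through VC.4 against 46708, 44395, 130250 and 181602 for AP.1 through AP.4, led by Krt10. VC.1, with the highest Mt4 of all libraries, was thus among the lowest for these markers, while AP.4 was the highest of the AP group for both. Of 8 basal keratinocyte genes, 4 (Itga6, Itgb4, Col17a1 and Lama3) were higher, with a median of 1.07. The count was 2 without AP.2, and 1 without AP.3, AP.4, VC.1 or VC.4, without limma's intensity trend or after the length trend was removed. Their sums, led by Krt14, ran from 22202 to 78985 in the VC group and from 50056 to 139737 in the AP group, and overlapped.

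Melanocyte genes, which share copper with this pathway through tyrosinase, had a median of -0.78, and 4 of 12 (Tyr, Pmel, Mlana and Mitf) were lower by limma (6 by DESeq2, 5 by edgeR), but only 1 with total counts and 1 with totals lacking mitochondrially encoded genes. Of these genes Tyr, at -1.37 in the main fit, was at -1.41 relative to the median with total counts. With totals lacking mitochondrially encoded genes Tyr was at -1.33. Summed melanocyte genes were at 4795, 3804, 4379 and 1794 normalized counts for VC.1 through VC.4 against 1633, 1868, 2362 and 1413 for AP.1 through AP.4. The most abundant was Dct (1211 ± 528 and 627 ± 133), and Gpr143 was at 0 in VC.4. The limma count was also 1 without AP.1, AP.2, AP.3, AP.4, VC.1, VC.2 or VC.3, each in turn, and without the intensity trend.

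For the other lists limma called 0 genes of 8 fibroblast markers (3 at an unadjusted p under 0.05, median 0.58), 7 skeletal muscle markers (5, median -1.74), 6 adipocyte markers (1, median 0.26), 6 leukocyte markers (4, median -0.53) and 7 tested hair matrix markers (2, median -0.60). DESeq2 called Adgre1 and Lyz2 lower among leukocyte markers. DESeq2 and edgeR both called Krt71 higher, a keratin of the inner root sheath on the hair matrix list. Of the 7 tested genes of that list, 5 had negative log2 fold changes. Neither tool called any of the fibroblast, muscle or adipocyte genes. The most abundant genes were Col1a1 (36683 ± 21309 and 55218 ± 24981 normalized counts in the VC and AP groups), Acta1 (18846 ± 6030.1 and 7604 ± 8922), Fabp4 (5506 ± 2915 and 6266 ± 1636), Lyz2 (7304 ± 3945 and 3168 ± 971) and Krt71 (794 ± 413 and 3489 ± 2478). Summed muscle markers were 66998 in AP.1 and 4947 to 10727 in the other AP libraries, against 33312 to 67066 in the VC group. Fibroblast sums ran from 76616 to 215629 and from 95488 to 250276, adipocyte sums from 5592 to 19833 and from 6918 to 18255, leukocyte sums from 4832 to 15011 and from 3634 to 6224, and hair matrix sums from 1033 to 3958 and from 1837 to 7811 in the VC and AP libraries. The hair matrix sums had means of 2869 with VC and 4839 with AP, of which Krt71 made up 794 and 3489. Of 5 red blood cell genes Hbb-bs was higher (1.24, adjusted p = 0.0231), with a median of 0.94, sums of 507 to 905 and 683 to 1550 normalized counts, and Alas2 at 0 in VC.1. The call of Hbb-bs was lost without AP.2, AP.4 or VC.1 and without limma's intensity trend. DESeq2 called another globin of the list, Hba-a2, lower (-0.83, adjusted p = 0.0396). Of 12 tested mitochondrially encoded genes 10 were lower by limma, with a median of -3.38, and 6 were lower without AP.2 or without AP.3.

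Lastly, profiles over the 8 libraries were compared as a description. After centring each gene's log2 values, those closest to Atp7a among 11256 genes with a mean of at least 50 normalized counts were Notch3, Pdzd2 and BC037039 (root mean square differences of 0.23, 0.25 and 0.27). Closest to Mt1 were Mfsd3, Doc2a and Rhno1 (0.085, 0.11 and 0.12), while its neighbour Mt2 ranked 184 (0.27). For Mt4 they were Myb, Recql4 and Cenps (0.36 each), with Mt2 ranking 252 and Mt1 747.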

How the data were processed

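The authors made libraries from mRNA enriched with oligo-dT beads, used STAR for alignment to mm10 and took counts per gene (featureCounts in the paper's methods, HTSeq in the submitters' processing notes). The deposited signal values are counts that the authors scaled with DESeq2, by 1 size factor for each library. All 150160 values were whole multiples of 1 step per library (tolerance 0.1 read), so reads were recovered. The authors' 6 columns of their own comparison (mean, log2 fold change, its error, statistic, p and adjusted p) were not used. Coordinates and transcript lengths are from GENCODE M21, which held 18770 of 18770 identifiers.

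The test was limma 3.58.1 (R 4.3.3) with an intensity trend on log2(value + 1), with Benjamini-Hochberg adjustment. It was run on simulated counts with 200 genes changed by known folds. These held no shift in mitochondrial share and no trend on length, so they do not check the test under such differences. Single library measures had an exact permutation test over 70 assignments. Alternatives were other pseudocounts, filters, scalings, voom, edgeR 4.0.16 and DESeq2 1.42.0 on recovered reads, and each library left out. Others were removal of a loess trend (span 0.3) on the principal transcript's length, and drawn-down reads. The latter were drawn to 3080758 per library outside the mitochondrially encoded genes. Reads of those genes were thinned by the same factor, so whole totals stayed unequal. Removal on the longest transcript's length, and a fit without mitochondrially encoded genes, were chosen after seeing the data.

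The genes and lists were chosen with earlier results of these data known. Named were the 10 genes, from each pathway list the called genes (at most 5) and the most abundant, from each cell type list the most abundant and those at 0 in a library, and the 3 closest profiles to Atp7a, Mt1 and Mt4. Mtf1, Mt3 and other genes named for a count of 5 or fewer were chosen after their values were seen. Intervals and floors cover counting error or the spread between libraries only.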

Additional observations from a re-analysis of the deposited data

Results flagged for a closer look

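A library far from the other 3 of its group was found in 5 of the 100 sets of 4 values examined (by Dixon's criterion, the gap to the nearest library over the group's range), and chance alone gives about 1 in 20 such sets. In the VC group, VC.1 stood apart with 2310.2 normalized counts of Sod1 against 1336 to 1364 in the others, with 10.9 of Atp7b against 0 to 1.48, and with 3291 summed over the superoxide dismutases against 2130.0 to 2283. VC.1 also had the highest mitochondrial share (54.3%). In the AP group, AP.2 had 806 normalized counts of Slc39a1 against 629 to 657, and AP.1 had 66998 summed over skeletal muscle markers against 4947 to 10727. Without VC.1 the log2 fold change of Sod1 was -0.48 (limma adjusted p = 0.136).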

How the results depend on the processing

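Recomputed under 25 alternatives were the counts of called genes, over all genes, the copper genes and each list with limma calls. So were the log2 fold changes of the tested copper genes, Mtf1, Mt3 and the limma-called or most abundant genes of the pathway lists. Ratios, levels per kilobase and nearest profiles were not. Of 1100 values, 838 kept their direction and side of the threshold or stayed close, 87 no longer passed, 23 passed newly, 28 turned their sign and 124 moved. Atp7a and Dusp1 passed under all 25 alternatives. Where no reason is given, the cause was not tested. No paired analysis was possible because the columns carry no number that pairs mice. The VC libraries' lower depth limits what can be seen of low genes such as Atp7b.

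The numbers of genes higher and lower at an adjusted p under 0.05 were 8657 and 70 with total counts, 1677 and 1362 with DESeq2, 376 and 216 without limma's intensity trend, 621 and 365 with the length trend removed, and 656 and 398 with the longest transcript's. With 1 library left out they ran from 209 to 1082 and from 94 to 817. By the methods' cut-offs they were 6915 and 35 with total counts, and ran from 847 to 1406 and from 505 to 996. Of the copper genes, 4 were higher with total counts (1 to 2 with a library left out). The number lower was 4 with DESeq2, 3 with voom and sample weights, 2 with TMM factors, the filter at 10, edgeR, voom, pseudocount 5, drawn-down reads or upper-quartile factors, 0 without the intensity trend, without a filter, with either total or with either length trend, and 0 to 2 with a library left out.

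With total counts the log2 fold changes were 1.27 for Slc31a1, 0.58 for Atox1, 0.24 for Ccs, 0.20 for Sod1, 0.01 (0.014) for Mt1, 0.13 for Mt2, 0.09 (0.088) for Mt4, 0.82 for Loxl2, 0.61 for Slc25a3, 0.02 (0.022) for Commd1, -0.51 for Tyr, 0.54 for Slc39a7 and 0.48 for Tsc22d3. Without the length trend they were 0.13 for Atox1, -0.30 for Ccs, -0.30 for Mtf1 and -0.06 (-0.060) for Txnrd1, and with the longest transcript 0.10, -0.30, -0.27 and -0.0056. Ccs was at -0.62 without the intensity trend and without a filter, and at -0.58 with totals lacking mitochondrially encoded genes. Sod1 was at -0.69 with DESeq2 and -0.67 with sample weights, and Mt2 at -0.83 with DESeq2. Mt1 was at -0.92 with DESeq2 and edgeR, -0.86 with TMM factors, the filter at 10, voom and pseudocount 5, -0.82 with sample weights, -0.87 with drawn-down reads and -0.91 with upper-quartile factors. Mtf1 was at -0.09 (-0.094) with sample weights and -0.03 (-0.031) with drawn-down reads, and Txnrd1 at -0.02 (-0.020) with upper-quartile factors.

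With a library left out, the ranges were 0.83 to 1.04 for Slc31a2, -0.69 to -0.56 for Ccs, -1.01 to -0.64 for Mt1, -0.78 to -0.48 for Sod1, -1.05 to -0.55 for Mt2, -1.12 to -0.40 for Mt4, -0.39 to -0.13 for Atox1, -0.27 to 0.23 for Loxl2, -0.08 (-0.076) to 0.26 for Mtf1 and -0.04 (-0.041) to 0.10 (0.099) for Txnrd1.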
